A study of Mus musculus with 12 samples.

Results

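Spectrins and ankyrins are the proteins of the lattice that lines the inner face of the plasma membrane. The 7 genes considered were Sptan1, Sptb, Sptbn1, Sptbn4, Ank1, Ank2 and Ank3, and each was to be read from a feature, the probe group of 1 transcript, that carries exactly 1 gene symbol in the platform annotation, taking the brightest where several exist. This rule found 6 of the 7 genes among 30142 genes with such a feature, each with 1 feature. The feature of Ank2 carries 2 symbols, Ank2 and Gm4392. RefSeq lists Gm4392 as a synonym of Ank2, so Ank2 is described beside the 6 members, from a fit of 30745 genes in which such synonyms were resolved, and is left out of their counts.

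The 12 arrays, of an Affymetrix whole-transcriptome design, measured RNA from 4 pieces of mouse hippocampus with 3 arrays for each, the pieces being cut out by laser capture microdissection, in which a laser lifts chosen cells or layers from a tissue section. The pieces were the layer of pyramidal cell bodies (stratum pyramidale) and the layer of their apical dendrites (stratum radiatum), each from field CA1 and from field CA2. All 4 groups came from the same 3 male Amigo2-EGFP mice of separate litters, given in the labels as Amigo2-GFP on C57BL/6J, 6 to 8 weeks old and with no treatment named. Every group carries the Amigo2-EGFP reporter, a green fluorescent protein that marks CA2 neurons, and the labels name no group without it. The layers are mixed tissue, so that fewer cells of a type and less RNA per cell cannot be told apart. By the run numbers in the labels, the CA1 arrays were of one run and the CA2 arrays of the other. In every comparison of CA2 with CA1, therefore, region and run cannot be told apart, whereas layers were compared within a run.

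Spectrin is a rod of alpha and beta chains that pair side by side and join end to end. Its ends are tied to short actin filaments by adducin and proteins of the 4.1 family, and ankyrins fasten the beta chains to channels, transporters and adhesion molecules in the membrane. In neurons the lattice runs along axons and dendrites, and ankyrin-G with beta-IV spectrin builds the axon initial segment, the stretch next to the cell body where action potentials start. The messenger RNAs of most of these proteins are long, and an array feature does not separate their splice forms.

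Values are log2 expression levels as the authors normalized them, so a difference of 1 is a 2-fold difference. Levels of different genes cannot be set against each other, because each is read by its own probes. A difference was called at an adjusted p under 0.05 in limma, adjusted by the Benjamini-Hochberg method over all genes, two-sided.

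Markers of other cells moved with the layers. All 8 astrocyte, 8 microglial and 8 endothelial markers measured were higher in the dendritic than in the cell body layer of both regions, as were the 7 oligodendrocyte, 5 oligodendrocyte precursor and 6 mural markers. Of 9 pyramidal neuron markers, 8 were lower and 1 higher in the dendritic layer of CA1, and 6 were lower and 1 higher in that of CA2. In the cell body layers, the CA1 markers Wfs1 and Fibcd1 were lower in CA2 by 2.72 and 1.94, and the CA2 marker Rgs14 was higher there by 1.17, with limma adjusted p-values of 1.2e-06, 1.18e-06 and 2.04e-06. Transcripts known from oocytes, 9 of 10 of which were measured, averaged 7.20 on CA2 cell body array 1, 7.40 on CA2 dendritic array 2 and 7.35 on CA2 dendritic array 3, against 5.60 to 5.93 on the other 9 arrays. The CA2 calls of the members are therefore also given without these 3 arrays, which leaves 2 arrays of the CA2 cell body layer and 1 of the CA2 dendritic layer, the lone array being assumed to vary like the other groups.

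Promoter sequences are shown for Sptan1 and Sptbn4, whose levels varied most alike of all pairs of the 7 genes, and for Sptb, whose level differed most between the groups. RefSeq windows (GRCm38.p6) of 250 bases before to 50 after a transcript start were at hand for 5 of the 7 genes. Capitals mark the GC box GGGCGG, searched on both strands with overlaps allowed, and each sequence runs 5′ to 3′ on the strand of its gene. Sptan1 lies on the plus strand and the other two on the minus strand, and the window of Sptbn4 is the farthest upstream of 4.
Sptan1 (chr2:29965310-29965609): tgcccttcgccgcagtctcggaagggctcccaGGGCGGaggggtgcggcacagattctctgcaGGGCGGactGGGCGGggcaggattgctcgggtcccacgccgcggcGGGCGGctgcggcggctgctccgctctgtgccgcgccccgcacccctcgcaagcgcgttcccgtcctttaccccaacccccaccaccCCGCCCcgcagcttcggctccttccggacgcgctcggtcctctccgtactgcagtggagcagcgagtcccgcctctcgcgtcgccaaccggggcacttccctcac
Sptbn4 (chr7:27446540-27446839): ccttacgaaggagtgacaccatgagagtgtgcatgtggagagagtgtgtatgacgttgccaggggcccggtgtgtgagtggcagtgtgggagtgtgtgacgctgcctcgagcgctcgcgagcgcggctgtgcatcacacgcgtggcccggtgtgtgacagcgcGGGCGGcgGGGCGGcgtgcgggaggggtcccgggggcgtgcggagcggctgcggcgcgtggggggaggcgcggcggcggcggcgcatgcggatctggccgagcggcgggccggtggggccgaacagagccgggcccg
Sptb (chr12:76710498-76710797): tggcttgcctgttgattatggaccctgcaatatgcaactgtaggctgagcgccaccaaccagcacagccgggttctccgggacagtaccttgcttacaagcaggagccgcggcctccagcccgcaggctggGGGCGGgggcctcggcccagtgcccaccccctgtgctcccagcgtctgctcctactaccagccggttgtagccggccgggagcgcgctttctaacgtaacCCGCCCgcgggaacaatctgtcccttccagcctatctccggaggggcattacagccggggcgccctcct
The Sptan1 window held 5 GC boxes, that of Sptbn4 held 2 and that of Sptb held 2. Of 32851 windows of this length, 35.7% held at least 1 and 2.71% held 5 or more. The share of G and C was 73.3% in the Sptan1 window, 73.7% in that of Sptbn4 and 65.7% in that of Sptb, against a median of 52.7% over all windows. The dinucleotide CG occurred 37, 41 and 21 times in the same order, against a median of 7. None of these 3 windows held the letters TATAAA on either strand, which 13.6% of all windows did.

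**Figure D1:**
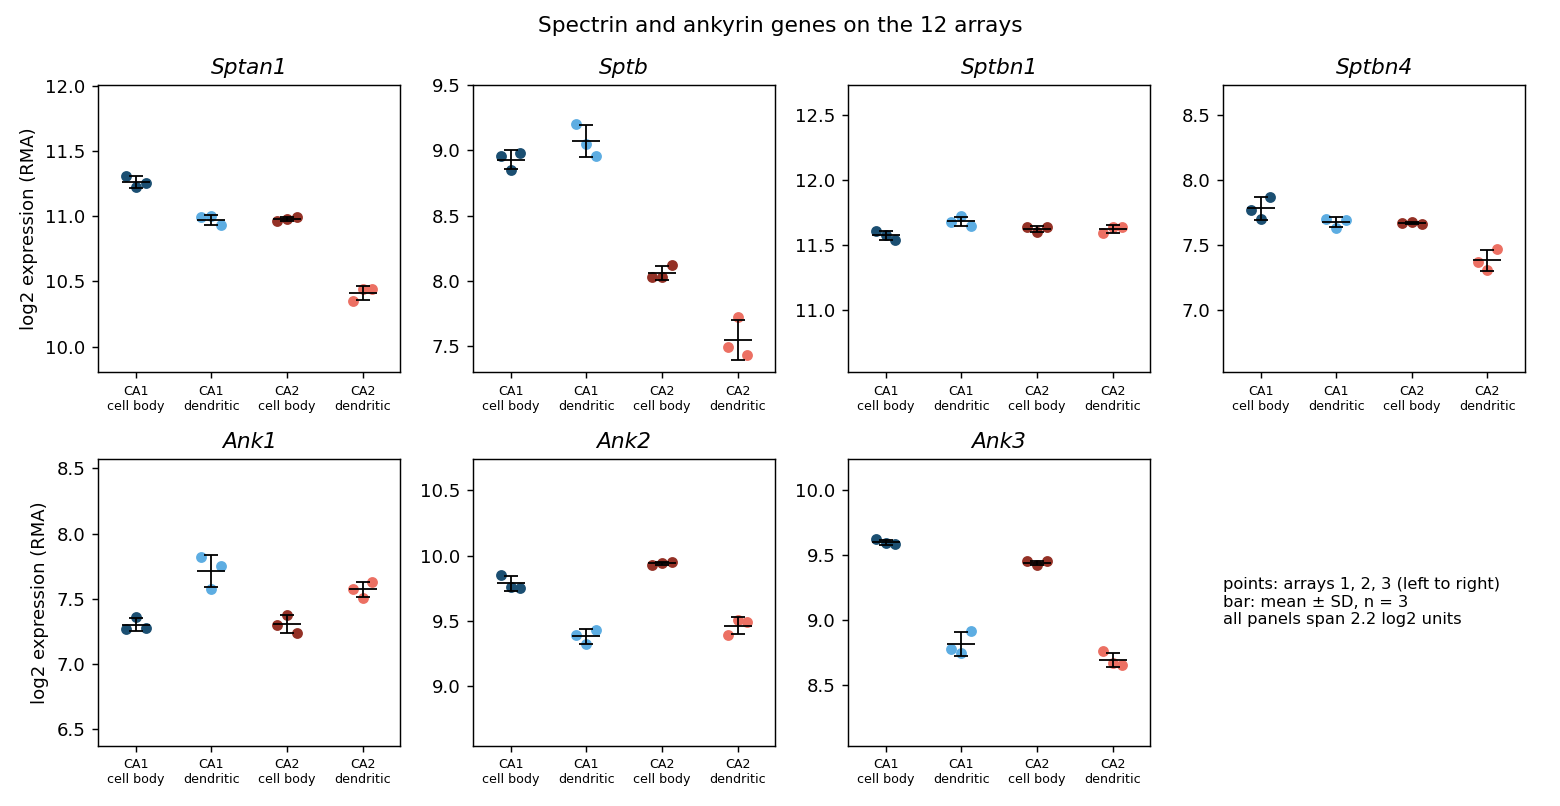
Log2 expression level of each of the 7 genes (vertical axis, 1 panel a gene, all panels spanning the same number of log2 units) in the cell body (CB) and dendritic (DE) layers of CA1 and CA2 (horizontal axis), with points for single arrays and bars for the mean and SD of 3 arrays. Sptb covers the widest span, from 7.55 in the CA2 dendritic layer to 9.07 in the CA1 dendritic layer, while the 12 arrays of Sptbn1 lie between 11.54 and 11.72.

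Sptan1 encodes alpha-II spectrin, the alpha chain of neurons and of most cells outside the blood, and its gene lies on chromosome 2 (29965560 to 30031451, GRCm38.p6). Its log2 level was 11.31, 11.22 and 11.25 on the 3 arrays of the CA1 cell body layer and 10.99, 11.00 and 10.93 on those of the CA1 dendritic layer. It was 10.96, 10.98 and 10.99 in the CA2 cell body layer and 10.35, 10.44 and 10.44 in the CA2 dendritic layer. The CA1 cell body arrays stood above all others and the CA2 dendritic arrays below all others, while the 2 groups between them, the CA2 cell body and the CA1 dendritic layer, overlapped. Sptan1 was lower in the dendritic layer by a log2 difference of 0.29 in CA1, written as dendritic minus cell body -0.29 ± 0.06 (SE, n = 3 a group, limma adjusted p = 0.00368). The same difference in CA2 was -0.57 ± 0.06 (limma adjusted p = 4.24e-05). The CA2 level was also below the CA1 level in both layers, by -0.28 ± 0.06 in the cell body layers (limma adjusted p = 0.00889) and by -0.56 ± 0.06 in the dendritic layers (limma adjusted p = 0.000256). The compared groups did not overlap in any of these comparisons, so all 3 same-numbered pairs of arrays had the sign of the difference, as any pairing would. The call between the cell body layers was lost without CA1 cell body array 1 (-0.25, limma adjusted p = 0.0521), without all arrays of replicate 1, 2 or 3 (-0.25, -0.305 and -0.295, limma adjusted p = 0.096, 0.0708 and 0.0748), and without the 3 arrays with oocyte transcripts (-0.26, limma adjusted p = 0.0713). Without these 3 arrays the layer difference in CA2 was -0.685 and the difference between the dendritic layers -0.66, with limma adjusted p-values of 0.00902 and 0.022.

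Sptb encodes beta-I spectrin, the beta chain first known from red blood cells and also made in neurons, and its gene lies on chromosome 12 (76580488 to 76710547). Its level was 8.96, 8.85 and 8.98 in the CA1 cell body layer and 9.20, 9.05 and 8.96 in the CA1 dendritic layer. In CA2 it was 8.03, 8.03 and 8.12 in the cell body layer and 7.49, 7.72 and 7.43 in the dendritic layer. Every CA1 array was above every CA2 array, the CA1 layers overlapped, and the CA2 dendritic layer lay below the CA2 cell body layer. The CA2 level was 1.83-fold lower than the CA1 level in the cell body layers (log2 difference -0.87 ± 0.09, SE, n = 3 a group, limma adjusted p = 0.00012). It was 2.88-fold lower in the dendritic layers (-1.52 ± 0.09, limma adjusted p = 2.09e-05). Sptb was lower in the dendritic than in the cell body layer of CA2 (-0.51 ± 0.09, limma adjusted p = 0.00142), while the difference in CA1 did not pass the test (0.14, 95% interval -0.07 to 0.35, limma adjusted p = 0.235). Without the 3 arrays with oocyte transcripts the cell body, dendritic and CA2 layer differences were -0.815, -1.66 and -0.705, all still called (limma adjusted p = 0.00189, 0.00597 and 0.0147). Of 8 red blood cell markers 3 were measured, Alas2, Epb42 and Rhag. Their summed signal, on a log2 scale, ranged from 7.33 to 7.61 over all 12 arrays, 0 of the 3 were called between the cell body layers, and 1 of the 3, Rhag, was lower in CA2 between the dendritic layers (-0.19 ± 0.06, limma adjusted p = 0.048). No globin gene was among these 3 markers, and their sum places them near the array medians of 5.68 to 5.88. They therefore cannot show how much blood a piece held. The part of red blood cells in the level of Sptb was not tested.

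Sptbn1 encodes beta-II spectrin, the main beta chain of the lattice along axons and of many other cells, and lies on chromosome 11 (30099395 to 30268384). Its level was 11.61, 11.58 and 11.54 in the CA1 cell body layer, 11.68, 11.72 and 11.65 in the CA1 dendritic layer, 11.64, 11.60 and 11.64 in the CA2 cell body layer and 11.59, 11.64 and 11.64 in the CA2 dendritic layer. The highest and the lowest group means were 0.107 apart, and only the CA1 dendritic arrays stood clear of the next group. No comparison of Sptbn1 was called. The 95% interval of the layer difference was -0.02 to 0.24 in CA1 and -0.13 to 0.13 in CA2, and that of the difference between regions was -0.08 to 0.18 in the cell body and -0.19 to 0.07 in the dendritic layers. With quantile normalization of the 12 arrays, the layer difference in CA2 became -0.23 and was called (limma adjusted p = 0.0146).

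Sptbn4 encodes beta-IV spectrin, which with ankyrin-G anchors channels at axon initial segments and nodes of Ranvier, and lies on chromosome 7 (27356383 to 27447704). Its level was 7.77, 7.70 and 7.87 in the CA1 cell body layer, 7.70, 7.63 and 7.69 in the CA1 dendritic layer, then 7.67, 7.68 and 7.66 in the CA2 cell body layer. It was 7.37, 7.31 and 7.47 in the CA2 dendritic layer. The CA1 cell body, CA1 dendritic and CA2 cell body layers overlapped in the order of their means, and the CA2 dendritic arrays stood below all others. Sptbn4 was lower in the dendritic than in the cell body layer of CA2 (-0.29 ± 0.06, SE, n = 3 a group, limma adjusted p = 0.00445) and lower in the dendritic layer of CA2 than in that of CA1 (-0.29 ± 0.06, limma adjusted p = 0.00786). The layer difference in CA1 was -0.11 (95% interval -0.25 to 0.03, limma adjusted p = 0.181). Both differences were -0.31 without the 3 arrays with oocyte transcripts, and neither was called (limma adjusted p = 0.162 and 0.145). The layer call in CA2 was also lost without all arrays of replicate 1 or 2 (-0.28 and -0.245, limma adjusted p = 0.0559 and 0.0806). The call between the dendritic layers was lost without replicate 1 or 2 (-0.27 and -0.275, limma adjusted p = 0.0838 and 0.0827), with only the groups compared in the fit (-0.29, limma adjusted p = 0.0929) and with each array centred on its median (-0.18, limma adjusted p = 0.0599).

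Ank3 encodes ankyrin-G, the organiser of the axon initial segment, and lies on chromosome 10 (69533486 to 70027436). Its level was 9.62, 9.59 and 9.58 in the CA1 cell body layer and 8.78, 8.75 and 8.92 in the CA1 dendritic layer. It was 9.45, 9.42 and 9.45 in the CA2 cell body layer and 8.76, 8.67 and 8.66 in the CA2 dendritic layer. Every cell body array stood above every dendritic array, and the dendritic layers of both regions overlapped. Ank3 was 1.72-fold lower in the dendritic layer of CA1 (-0.78 ± 0.07, SE, n = 3 a group, limma adjusted p = 6.24e-06) and 1.67-fold lower in that of CA2 (-0.74 ± 0.07, limma adjusted p = 8.67e-06). Without the 3 arrays with oocyte transcripts the CA2 difference was -0.665 (limma adjusted p = 0.0136). The region differences did not pass the test: -0.16 in the cell body layers (95% interval -0.30 to -0.01, limma adjusted p = 0.127), although those arrays did not overlap, and -0.12 in the dendritic layers (-0.27 to 0.03, limma adjusted p = 0.175). With array weights the cell body difference was called (limma adjusted p = 0.0355).

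Ank2 encodes ankyrin-B, which is spread along axons and holds ion transporters and adhesion molecules, and lies on chromosome 3 (126921607 to 127500347). Its level was 9.85, 9.76 and 9.75 in the CA1 cell body layer and 9.39, 9.32 and 9.43 in the CA1 dendritic layer. It was 9.93, 9.94 and 9.95 in the CA2 cell body layer and 9.39, 9.51 and 9.49 in the CA2 dendritic layer. The CA2 cell body arrays were the highest, the CA1 cell body arrays followed without overlap, and the dendritic layers overlapped below them. Ank2 was lower in the dendritic layer by -0.41 ± 0.07 in CA1 (SE, n = 3 a group) and by -0.48 ± 0.07 in CA2, with limma p-values adjusted over 30745 genes of 0.000592 and 0.000222. Without the 3 arrays with oocyte transcripts the CA2 difference was -0.61 (limma adjusted p = 0.0162). Between the cell body layers, CA2 minus CA1 was 0.15 (95% interval 0.01 to 0.30, limma adjusted p = 0.139), and it was called with quantile normalization (0.27, limma adjusted p = 0.0176) and with median centring (0.25, limma adjusted p = 0.0323). Between the dendritic layers it was 0.08 (-0.06 to 0.23, limma adjusted p = 0.339).

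Ank1 encodes ankyrin-R, named for red blood cells and present in some neurons, and lies on chromosome 8 (22974836 to 23150501). Its level was 7.27, 7.36 and 7.28 in the CA1 cell body layer and 7.82, 7.58 and 7.75 in the CA1 dendritic layer. It was 7.30, 7.38 and 7.24 in the CA2 cell body layer and 7.58, 7.51 and 7.63 in the CA2 dendritic layer. Ank1 thus ran the other way from Ank2 and Ank3, with every dendritic array above every cell body array and the regions overlapping within each layer. The level was 1.33-fold higher in the dendritic layer of CA1 (0.41 ± 0.08, SE, n = 3 a group, limma adjusted p = 0.00179) and 1.20-fold higher in that of CA2 (0.27 ± 0.08, limma adjusted p = 0.0244). The call in CA2 was lost without CA2 cell body array 1 or 3, without CA2 dendritic array 1 or 3 (0.22 to 0.27, limma adjusted p = 0.0617 to 0.119), without all arrays of replicate 1 or 3 (0.26 and 0.205, limma adjusted p = 0.119 and 0.224), with median centring (0.23, limma adjusted p = 0.0611), and without the 3 arrays with oocyte transcripts (0.22, limma adjusted p = 0.455). CA2 minus CA1 was 0.00 in the cell body layers (95% interval -0.17 to 0.18) and -0.14 in the dendritic layers (-0.32 to 0.03), with limma adjusted p-values of 0.987 and 0.183. Of the same 3 red blood cell markers, 0 were called between the layers of either region, but at levels near the array medians they cannot show blood content. Of 10 interneuron markers, 8 were higher and 1 lower in the dendritic layer of CA1, and 7 were higher and 0 lower in that of CA2. Their summed signal, as log2, was 11.49 to 11.63 in the CA1 cell body layer and 12.77 to 13.17 in the CA1 dendritic layer, and 11.60 to 11.78 and 13.02 to 13.24 in the same layers of CA2. The astrocyte sum was 11.17 to 11.19 and 13.40 to 13.44 in CA1, and 11.29 to 11.34 and 13.45 to 13.59 in CA2. The part of these cells in the level of Ank1 was not tested.

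Between the layers of CA1, 2 of the 6 members were lower in the dendritic layer, Sptan1 and Ank3, 1 was higher, Ank1, and 3 were not called. Of all genes tested in this comparison 46.9% were called, 28.3% higher and 18.5% lower. The median difference of the 6 members was 0.00, against 0.12 over all genes. Between the layers of CA2, 4 members were lower, Sptan1, Sptb, Sptbn4 and Ank3, 1 was higher, Ank1, and 1 was not called. Here 34.0% of all genes were called, 16.2% higher and 17.8% lower, and the median was -0.40 for the members and -0.03 for all genes. In CA2, 3 members, Sptan1, Sptb and Ank3, were called without the 3 arrays with oocyte transcripts. The summed signal of the 9 pyramidal neuron markers, as log2, was also lower in the dendritic layers, at 14.07 to 14.11 in the CA1 cell body and 13.60 to 13.64 in the CA1 dendritic layer, and at 13.69 to 13.76 and 13.23 to 13.28 in the same layers of CA2. Its part in the falls of Sptan1, Sptb, Sptbn4, Ank2 and Ank3 was not tested.

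Between the regions, 0 members were higher in CA2. In the cell body layers 2 of 6, Sptan1 and Sptb, were lower in CA2, where 21.1% of all genes were called, 10.6% higher and 10.5% lower, and the median difference was -0.13 for the members and 0.02 for all genes. In the dendritic layers 3 of 6, Sptan1, Sptb and Sptbn4, were lower in CA2, where 30.2% of all genes were called, 11.6% higher and 18.6% lower, and the medians were -0.22 and -0.11. The split of all calls depended on the scaling. In the cell body layers 50.3% of called genes were higher in CA2 as deposited, 70.4% with quantile normalization and 74.3% with median centring, and in the dendritic layers 38.3%, 56.4% and 70.3%. Sptan1 and Sptb were lower in CA2 in both layers under all 3 scalings, though the cell body call of Sptan1 was lost with median centring (-0.18, limma adjusted p = 0.0598). Without the 3 arrays with oocyte transcripts 1 member was called between the cell body layers, Sptb, and 2 between the dendritic layers, Sptan1 and Sptb. The 9 pyramidal neuron markers include the CA1 markers Wfs1 and Fibcd1 and the CA2 marker Rgs14. Between regions they thus do not measure pyramidal cell content alone. Of these, 3 were lower and 2 higher in CA2 between the cell body layers, and 7 were lower and 0 higher between the dendritic layers. Between the cell body layers 6 of 7 oligodendrocyte and 5 of 8 endothelial markers were higher in CA2. Between the dendritic layers 6 of 8 microglial markers were lower in CA2, and 5 of 8 endothelial, 4 of 7 oligodendrocyte and 3 of 6 mural markers were higher, while 5 of 10 interneuron markers were higher and 2 lower. The part of these cells in the lower levels of Sptan1, Sptb and Sptbn4 was not tested.

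**Figure D2:**
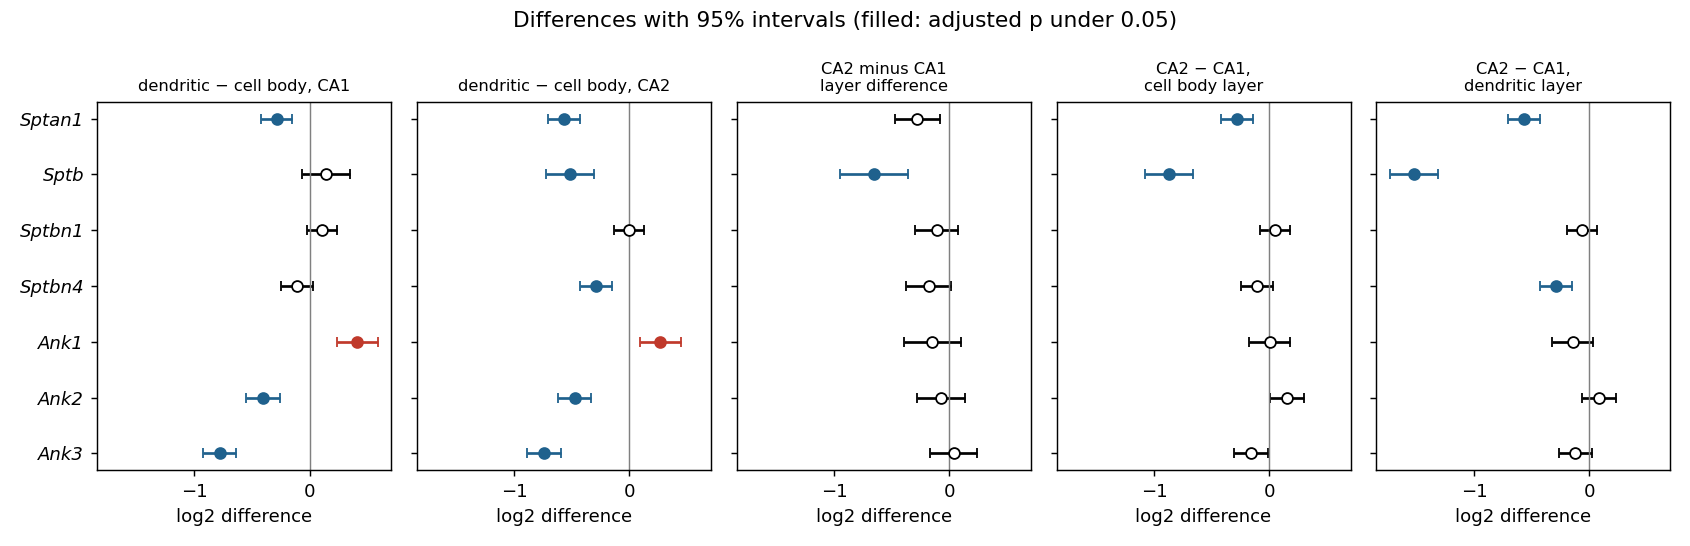
Log2 difference with its 95% interval (horizontal axis) for each of the 7 genes (vertical axis) in the 5 comparisons, 1 panel a comparison, with filled points for calls at an adjusted p under 0.05, open points for the rest and a line at 0. Ank3 and Ank1 lie on opposite sides of 0 in both layer panels, and Sptb lies farthest from 0 in both panels that compare CA2 with CA1.

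The difference between the layer differences, CA2 minus CA1, asks whether a gene's fall or rise from cell body to dendritic layer had the same size in both regions and cancels a difference between runs that affected both layers alike. It passed the test for 1 of 6 members, Sptb, at -0.65 ± 0.13 (SE, limma adjusted p = 0.0129), with a 95% interval of -0.95 to -0.36. Among all genes 11.6% were called, 4.81% higher and 6.81% lower, and the median was -0.16 for the members and -0.11 for all genes. All 3 same-numbered pairs had the sign of the Sptb difference, though the labels do not spell out that a number is a mouse. The call was lost when all arrays of replicate 1, 2 or 3 were left out (-0.59, -0.725 and -0.645, limma adjusted p = 0.113, 0.0602 and 0.0671), and without the 3 arrays with oocyte transcripts (-0.845, limma adjusted p = 0.0509). Sptan1 stood just outside the threshold at -0.28 (95% interval -0.48 to -0.08, limma adjusted p = 0.0664), and it was called without the replicate block (limma adjusted p = 0.0347), with only genes above the median feature (0.0447) and with a variance trend (0.0308). The intervals of the other members included 0: -0.30 to 0.08 for Sptbn1, -0.38 to 0.02 for Sptbn4, -0.40 to 0.10 for Ank1 and -0.17 to 0.24 for Ank3, and for Ank2 -0.28 to 0.14.

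Over the 12 arrays, which share their groups, Sptan1 and Sptbn4 had a Pearson correlation of 0.94, the highest of all pairs of the 7 genes. Sptan1 and Sptb correlated at 0.811, and Ank2 and Ank3 at 0.883. Ank1 ran against both of these, at -0.873 with Ank2 and -0.843 with Ank3. Sptb and Ank2 were close to unrelated at -0.076. Among all named genes, the 3 with the highest correlation to each member over the 12 arrays were Nav1, Phyhip and Rasgrf1 for Sptan1 (0.991 to 0.988), Adgrb2, Scap and Dlgap1 for Sptb (0.988 to 0.986), and Ints1, Nuak1 and Zswim8 for Sptbn4 (0.967 to 0.965). They were Stxbp5, Necap1 and Ccdc30 for Ank3 (0.997 to 0.995), Acsl5, Clip1 and Agk for Ank2 (0.994 to 0.992), and Kazn, Man2b1 and Cul7 for Ank1 (0.977 to 0.972). For Sptbn1, whose groups hardly differed, the highest were lower, at 0.905 for Olfr506, 0.898 for Prss48 and 0.898 for Nrg4. The group means of Olfr506 (2.74 to 3.08) and Nrg4 (5.49 to 5.65) lay below the array medians of 5.68 to 5.88, and those of Prss48 (6.18 to 6.66) above. Whether these 3 genes were detected was not tested.

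The partners of spectrins and ankyrins were taken as 6 lists of 64 genes, of which 50 were measured by a feature with 1 symbol. In the dendritic layer of CA1, 30 of the 50 were lower and 9 higher, and in that of CA2, 31 were lower and 6 higher. The lower genes were 60% and 62% of the list, against 18.5% and 17.8% of all genes, and the list medians were -0.33 and -0.385, against 0.12 and -0.03 over all genes. The lists were chosen with earlier results of these data known, so the contrast with all genes is not independent of these data. The listed genes were also not matched to all genes by level. The lists were not tested as sets, and the part of the pyramidal neuron markers, which were mostly lower in the same layers, was not tested. Among the other spectrins only Sptbn5, beta-V spectrin, was measured of 3, and its layer differences of 0.08 and -0.12 did not pass the test (limma adjusted p = 0.4 and 0.321).

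Of 12 measured genes of the spectrin-actin junction, 4 were higher and 5 lower in the dendritic layer of each region, with medians of -0.15 in CA1 and -0.10 in CA2. Epb41l2, a protein of the 4.1 family that binds spectrin to actin, was 5.32-fold higher in the dendritic layer of CA1 (2.41 ± 0.07, SE, limma adjusted p = 1e-08) and 5.30-fold higher in that of CA2 (2.41, limma adjusted p = 1.02e-08). Epb41l1, another protein of that family, was higher by 1.19 and 0.74, and the gamma-adducin gene Add3 by 0.74 and 0.85. The beta-adducin gene Add2 was lower in the dendritic layer of CA2 (-0.81 ± 0.08, limma adjusted p = 1.22e-05) and was -0.17 in CA1 (limma adjusted p = 0.0812). Add2, whose protein caps actin filaments beside spectrin, was also lower in CA2 than in CA1 between the dendritic layers (-0.97, limma adjusted p = 5.61e-05), as Sptb was. Dmtn, which encodes the actin-bundling protein dematin, was -0.33 in CA1 and -0.73 in CA2 between the layers. The call in CA1 was lost with quantile normalization (-0.18, limma adjusted p = 0.0608), and Add2 in CA1 was called without CA1 dendritic array 1 (-0.24, limma adjusted p = 0.037) and with median centring (-0.22, limma adjusted p = 0.046).

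The adhesion genes were mostly lower in the dendritic layer. Of 8 genes of the L1 family and of the paranode, 7 were lower in CA1 and 6 in CA2, with medians of -0.70 and -0.615. Cntnap2, which encodes the axonal protein Caspr2, was -1.76 in CA1 and -0.74 in CA2 (limma adjusted p = 4.81e-07 and 0.000177), L1cam was -1.19 and -1.04, and Nfasc, the neurofascin gene of initial segments and paranodes, was -0.72 and -0.75. Chl1, a relative of L1cam, went in opposite directions, lower in the dendritic layer of CA1 (-1.27 ± 0.09, limma adjusted p = 1.53e-06) and higher in that of CA2 (0.28 ± 0.09, limma adjusted p = 0.0284). The call in CA2 was lost when any of 4 single CA2 arrays was left out (cell body array 2 or 3, dendritic array 1 or 3, limma adjusted p = 0.0754 to 0.126), with median centring (limma adjusted p = 0.0561) and without the 3 arrays with oocyte transcripts (0.47, limma adjusted p = 0.0645).

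Of 13 measured genes of the axon initial segment, 10 were lower in the dendritic layer of each region and 1 was higher in CA1, with medians of -0.54 and -0.41. The sodium channel genes Scn2a and Scn8a, whose proteins ankyrin-G holds there, were -1.32 and -0.97 in CA1 and -1.56 and -1.65 in CA2. Kcnq3, a subunit of the potassium channel of the same site, was -0.68 and -0.37 between the layers and lower in CA2 than in CA1 by -1.10 between the cell body layers (limma adjusted p = 9.24e-06). The member that was higher, Fgf13, encodes an intracellular partner of sodium channels and was 0.61 in CA1 (limma adjusted p = 4.67e-05) and 0.11 in CA2 (limma adjusted p = 0.263).

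Of 12 measured transporters, channels and adaptors that bind ankyrins, 7 were lower and 2 higher in the dendritic layer of CA1, and 8 were lower and 0 higher in that of CA2, with medians of -0.33 and -0.47. The sodium-calcium exchanger gene Slc8a1, whose protein binds ankyrin-B, was -1.93 and -2.27 (limma adjusted p = 9.83e-08 and 3.51e-08). Ehd3, an endocytic protein, and Cacna1c, an L-type calcium channel subunit, were -0.52 and -0.33 in CA1 and -1.52 and -1.18 in CA2. Both were higher in CA2 than in CA1 between the cell body layers, by 0.93 and 1.01. Rabgap1l, which binds ankyrin-B, was -1.04 and -0.66 between the layers.

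Of 4 measured genes of spectrin proteolysis, in which calpain cuts the alpha chain, 2 were higher and 1 lower in the dendritic layer of CA1, and 1 was higher and 2 lower in that of CA2. The calpain-2 gene Capn2 was higher in both (1.23 and 1.07, limma adjusted p = 1.82e-06 and 4.38e-06), and the calpain-1 gene Capn1 was lower in both (-0.45 and -0.85). Cast, which encodes the calpain inhibitor calpastatin, was higher in the dendritic layer of CA1 (0.74 ± 0.07, limma adjusted p = 1.57e-05) and lower in that of CA2 (-0.36 ± 0.07, limma adjusted p = 0.00251). The CA2 difference was larger without the 3 arrays with oocyte transcripts, at -0.47, and with fewer arrays was not called (limma adjusted p = 0.0627). Between the cell body layers Cast was higher in CA2 by 1.31 ± 0.07 (limma adjusted p = 1.2e-06), and 3 of the 4 genes were higher there and 0 lower. Of the calls of single partners given here for CA2, those of Chl1 and Cast between the layers were lost without the 3 arrays with oocyte transcripts and the others held.

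**Figure D3:**
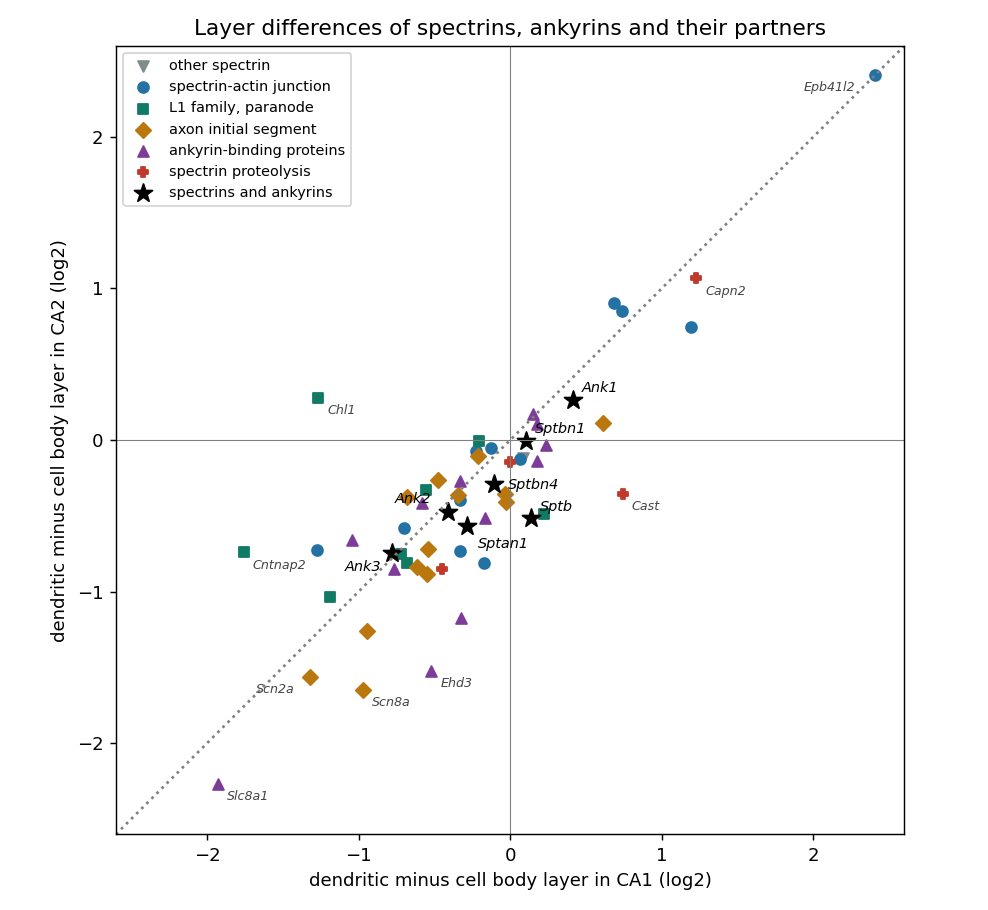
Dendritic minus cell body difference in CA1 (horizontal axis, log2) against that in CA2 (vertical axis, log2) for the 7 spectrin and ankyrin genes (stars) and their 50 measured partners (marks by list), with the dotted line where both are equal. Most partners lie below and left of 0, Epb41l2 lies at 2.41 on both axes, and Chl1 and Cast lie where the signs differ.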

How the data were processed

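The deposited values are log2 expression levels that the authors made with RMA (robust multi-array average), per the submitters' processing notes. Not given in the sources used here are the software and whether both runs were normalized together. Of 72688 features, 30604 had 1 gene symbol, 2146 had several and 39938 were unnamed here; 22818 matched a RefSeq gene table, which changed 827 symbols. The feature with the highest mean was kept per gene, leaving 30142 genes. Array medians ranged from 5.68 to 5.88. Arrays give no read depth, and their number limits the precision.

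One limma 3.58.1 fit (R 4.3.3; lmFit, eBayes) held 4 group means for the 12 arrays plus a fixed block for the replicate number, and was tested on simulated data. Benjamini-Hochberg adjustment ran over all genes. The block was kept because the protocols take all 4 pieces from each mouse, although the labels do not spell out that a number is a mouse. In the check of the pairing, deviations from group means correlated above 0.1 in 1 of 18 same-numbered pairs of arrays (-0.346 to 0.132) and in 6 of 36 other pairs (-0.134 to 0.251). Replicates were taken as captures from separate mice, which the labels do not spell out.

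All 7 genes were named in each comparison, with the 3 genes of highest Pearson correlation to each (leaving out predicted genes, clones and small RNAs), and, of each partner list, the 2 genes with the smallest p in each comparison and any called in opposite directions in CA1 and CA2; the text gives a selection of these. Members and lists were chosen with earlier results of these data known. The alternatives were no replicate block, quantile normalization, median centring, a filter on dim features, the mean of a gene's features, a fit of only the groups compared, array weights, a variance trend, leaving out each array, each replicate number and the arrays with oocyte transcripts; resolving old symbols was added after seeing the data.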

Additional observations from a re-analysis of the deposited data

Results flagged for a closer look

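Of all genes, 11.6% were called by the test of the difference between the layer differences (limma, adjusted over all genes), 4.81% higher and 6.81% lower. The named partners were picked in part by a small p in this same test. Their share called cannot therefore be set against that of all genes. Among the spectrin and ankyrin genes and the partners picked as described above, 12 were called. The difference is given as CA2 minus CA1. It was lower for 10 of them: Sptb at -0.65 (limma adjusted p = 0.0129), Add2 at -0.64 (0.00491), Dmtn at -0.40 (0.0227), Epb41l1 at -0.45 (0.0125), Scn8a at -0.68 (0.00866), Fgf13 at -0.50 (0.0108), Cacna1c at -0.85 (0.00072), Ehd3 at -1.003 (0.000473), Capn1 at -0.40 (0.048) and Cast at -1.10 (0.000153). It was higher for Chl1 at 1.54 (limma adjusted p = 6.5e-05) and for Cntnap2 at 1.02 (0.00194). Of the 9 pyramidal neuron markers, 4 were lower and 2 higher in this test, with a median of -0.54. The higher ones were Wfs1 (0.99, limma adjusted p = 0.0159) and Fibcd1 (0.57, 0.0361), and Rgs14 (-1.11, 0.000125) was among the lower. The call of Capn1 was lost when any single array other than CA2 dendritic array 1 was left out (limma adjusted p = 0.0592 to 0.128). That of Dmtn was lost without CA1 cell body array 2 or 3, CA2 cell body array 2 or 3 or CA2 dendritic array 1 (0.0511 to 0.0751). When all arrays of replicate 1, 2 or 3 were left out, the calls of Sptb, Epb41l1, Dmtn, Fgf13 and Capn1 were lost each time, that of Add2 without replicate 2 or 3 (0.0765 and 0.054) and that of Scn8a without replicate 1 or 3 (0.089 and 0.0835). Without the 3 arrays with oocyte transcripts, which leaves fewer arrays, 5 calls were lost. In 4 of these the difference was larger than with all arrays, at -0.845 for Sptb (0.0509), -0.59 for Epb41l1 (0.0767), -0.55 for Dmtn (0.094) and -0.60 for Fgf13 (0.107), and in Capn1 it was smaller, at -0.21 (0.417). Of all 50 measured partners, 11 were called lower and 3 higher in this test, or 22% and 6%, against 6.81% and 4.81% of all genes. Those not picked were Cntnap1 at -0.72 (limma adjusted p = 0.024), Slc4a3 at -0.32 (0.0421) and Epb41l3 at 0.55 (0.0475), and they were not run under the alternatives. Groups of 3 arrays were not searched for outlying arrays.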

How the results depend on the processing

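The count of called members between the layers of CA1, 3 of 6, was the same in all 25 alternatives. The layer calls of Sptan1, Ank2 and Ank3 in both regions, of Sptb in CA2 and of Ank1 in CA1, and the calls of Sptb between the regions in both layers and of Sptan1 between the dendritic layers, held in all 25 alternatives run for each. Over the 7 genes and 5 comparisons, 834 of the values under alternatives kept their side of the threshold, 26 lost a call, 8 gained one and no called value changed sign. For the named partners these counts were 2781, 150 and 45, again with no called value reversed. Values that were not called could change sign, as that of Sptbn1 between the layers of CA1 did (-0.02 to 0.13). The difference between the layer differences had 1 member called, and 2 without the replicate block, with only genes above the median feature and with the variance trend. Without the replicate block the counts of the other 4 comparisons did not change. Between the layers of CA2, quantile normalization added Sptbn1 and median centring lost Ank1. Between the dendritic layers Sptbn4 was lost with median centring, with only the groups compared in the fit and without replicate 1 or 2. Array weights added Ank3 between the cell body layers. Between the cell body layers the count fell from 2 to 1 with median centring. Without the arrays with oocyte transcripts, chosen by a rule on their own transcripts, it was 3 between the layers of CA2, 0 for the difference between the layer differences and 1 between the cell body layers. Leaving out single arrays or replicate numbers gave 3 to 5 members between the layers of CA2, 0 to 1 for the difference between the layer differences and 1 to 2 between the cell body layers. The cause of these shifts was not tested, beyond the fewer arrays in the fit. The deposited values give no detection calls, so signal over background was not tested, and precision is limited by 3 arrays a group.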
